A study of Mus musculus with 101 samples.

Results

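Germ cells from male F1 mouse embryos whose mothers received benzo[a]pyrene (BaP) at the high dose of 2 mg/kg-day were compared with those of male F1 embryos of vehicle-dosed mothers. The members are the embryos of the first generation that the labels give as male at either of these doses, which makes 8 exposed and 5 vehicle embryos, 13 of the 101 in the series. The exposed embryos came from 7 dams and the vehicle embryos from 5, so that only C4219.1 and C4219.2 are littermates within a group. All embryos are of the OG2 strain, in which EGFP is expressed from the Pou5f1 promoter with its distal enhancer. The dams were dosed by mouth in sesame oil from embryonic day 6.5 (E6.5), the vehicle group with the oil alone. Primordial germ cells (PGCs) were sorted for EGFP from the gonads of their embryos at E13.5. Dosing of these dams had stopped before the day of collection, so that no value was taken during dosing. Each value comes from the sorted cells of 1 embryo, amplified with an oligo-dT primer that keeps no strand information. Embryos are named by dam and number, and vehicle values are listed throughout in the order C3774.3, C4232.2, C4321.1, C4605.1 and D2580.2.

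Each gene has a read count scaled by the authors for library size, called a normalized count below, and the table holds 15423 genes. The reads behind them numbered from 6712819 to 31866635 in the exposed embryos and from 8073992 to 87240533 in the vehicle embryos. The 5 libraries of over 20000000 reads, called the deep libraries below, were exposed C4219.1, C4219.2 and C4258.5 and vehicle C3774.3 and C4232.2. Dam identifiers begin with C for 4 exposed and 4 vehicle embryos, and with D for 4 exposed embryos and 1 vehicle embryo. The labels do not say what the letter stands for. Over all genes the deviations from the group mean correlated at 0.42 between the littermates C4219.1 and C4219.2, against a median of -0.23 and a highest value of 0.60 over the 28 exposed pairs, so that at least 1 pair from different dams was more alike than the littermates. With the dam as a random block, the correlation within dams over the F1 embryos of both sexes was 0.38. The main fit took all embryos as separate.

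BaP is a polycyclic aromatic hydrocarbon of smoke and combustion products. It binds the aryl hydrocarbon receptor (AhR), which moves to the nucleus with its partner ARNT and switches on cytochrome P450 genes of the CYP1 family, and these enzymes turn BaP into epoxides that form bulky adducts on DNA and can deplete glutathione. In XY gonads at this stage the germ cells lie in cords of Sertoli cells, begin to leave the cell cycle and start a male program with Nodal signalling and the RNA-binding protein NANOS2, whereas germ cells of the XX gonad enter meiosis under Stra8. The comparison asks what direct exposure of the embryo to the high dose did to the transcriptome of male PGCs.

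The libraries carried the RNA of male germ cells in both groups. All 12 germ cell markers had reads in every one of the 13 embryos, and the fewest were 56 reads of Prdm14, a transcription factor that specifies germ cells. Dppa3 ran from 1509 to 3711 normalized counts over the 13 embryos, Dazl from 491 to 1376 and Ddx4 from 167 to 543. Pou5f1, whose promoter drives the reporter used for sorting, ran from 34.2 to 142. The Y-linked gene Eif2s3y had 204, 218, 173, 229.9 and 173 normalized counts in the vehicle embryos and ran from 114 to 245, with a median of 163, in the exposed embryos. All 5 Y-linked genes were tested, and the summed Y-linked genes lay between 182.7 and 326 normalized counts in all 13 embryos.

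No gene differed between exposed and vehicle embryos after correction for the number of genes. Of 13635 genes tested with limma, 0 (0%) had an adjusted p under 0.05, and the smallest adjusted p was 0.999995. At an unadjusted p under 0.05 there were 238 genes (1.75%), where 5% of the genes tested would be 682. This count was 426 when vehicle embryo C3774.3 was left out, 456 with log10 reads as a term, 443 with the dam letter as a term and 444 with only C dams, and it was 129 with only the 13 male embryos in the fit and 179 with the dam as a random block. The quasi-likelihood and the likelihood ratio tests of edgeR on the recovered reads also called 0 genes after adjustment, with 256 and 302 genes at an unadjusted p under 0.05 and smallest adjusted p of 0.835 and 0.240. The smallest adjusted p of limma was 0.324 with log10 reads as a term and 0.699 without exposed embryo D2593.1. The median log2 fold change of all genes was 0.00. The 95% interval of the fold change lay within 2-fold in either direction for 10914 genes (80%). Among the 8534 genes whose mean reached 5 normalized counts in the higher group, it did so for 7659 (89.7%), and the median interval reached 0.49 to each side of the estimate on the log2 scale.

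The study's own lists for ontology terms admitted genes with an unadjusted p under 0.05 and a change of at least 1.5-fold. The study took p from the likelihood ratio test of edgeR, which gave 123 higher and 135 lower genes here. With p from limma, called the 1.5-fold rule below, 69 genes (0.506%) were higher in exposed embryos and 109 (0.799%) lower, together 178 genes (1.31%). These counts moved with single embryos and with the model. There were 152 higher and 140 lower genes with log10 reads as a term and 173 higher and 143 lower with the dam letter as a term, so that the lower genes were no longer the more numerous. Without vehicle embryo C4321.1 there were 115 higher and 65 lower genes, and without vehicle embryo C3774.3 there were 210 lower genes. Since 0 genes passed the adjusted test, the genes named below are described by their values and none is called changed. Counts for the gene lists below are to be read beside the shares of all genes, 0% after adjustment and 1.31% by the 1.5-fold rule.

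**Figure D1:**
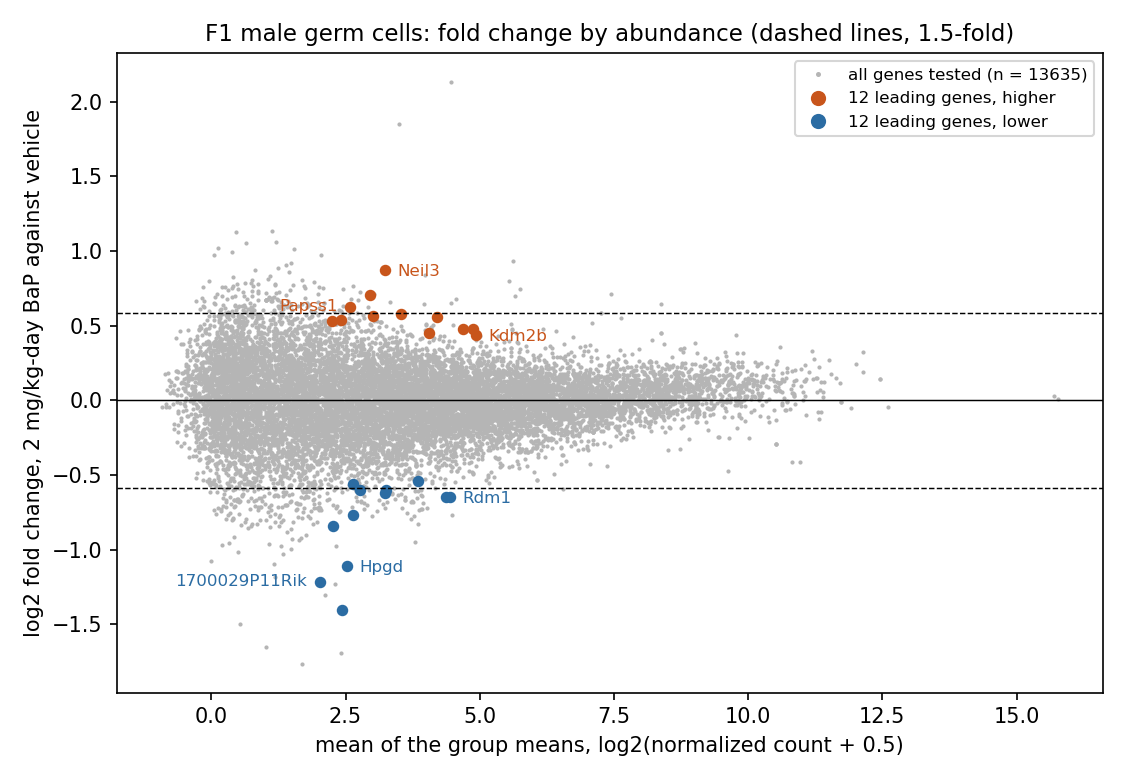
Each grey point is 1 of the 13635 genes tested, with the mean of the group means as log2(normalized count + 0.5) on the x axis and the log2 fold change of exposed against vehicle F1 males on the y axis. Coloured points are the 12 leading genes in each direction, among them Neil3 at 0.87 and 1700029P11Rik at -1.21, and the dashed lines mark 1.5-fold.

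The leading genes were taken by the smallest p among genes with a group mean of at least 5 normalized counts, 12 in each direction. Neil3, a DNA glycosylase that removes oxidized bases and opens crosslinks, led the higher genes (chromosome 8, 53586867 to 53639065 of GRCm38). Its normalized count was 7.80, 6.26, 2.68, 9.20 and 5.32 in the vehicle embryos and ran from 6.83 to 18.9, with a median of 10.4, in the exposed embryos. Every exposed embryo lay above the vehicle mean and 6 of 8 lay above every vehicle embryo, although the groups overlapped. The means were 11.6 ± 4.09 (SD, n = 8) against 6.25 ± 2.48 (SD, n = 5), a log2 fold change of 0.87 (95% interval 0.34 to 1.41) with an exact permutation p of 0.0109. The difference of log2 values was 0.92 within the deep libraries and 0.86 within the others.

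Papss1, which makes the activated sulfate donor PAPS, had 2.40, 5.19, 3.80, 5.98 and 3.99 normalized counts in the vehicle embryos. In the exposed embryos it ran from 5.27 to 7.90, with a median of 6.90, and the log2 fold change was 0.63 (95% interval 0.21 to 1.05). The vehicle values of Papss1 were spread below and into the exposed range, with 5 of 8 exposed embryos above them all. Kdm2b, a histone demethylase that recruits a variant Polycomb complex to CpG islands, had 25.7, 20.99, 30.7, 20.7 and 29.1 in the vehicle embryos and ran from 25.5 to 45.1, with a median of 33.4, in the exposed embryos. Its log2 fold change was 0.44 (95% interval 0.11 to 0.76). Plxna1, a receptor of semaphorins, was higher in 6 of 8 exposed embryos than in any vehicle embryo, at 5.78 ± 0.923 (SD, n = 8) against 3.84 ± 0.833 (SD, n = 5), a log2 fold change of 0.54 (95% interval 0.11 to 0.97).

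The other leading higher genes serve varied functions. Igf2bp2 binds mRNAs of growth genes and had a log2 fold change of 0.45 (SE 0.17). The paraoxonase family gene Pon2 had 0.58 (SE 0.22), and its vehicle mean included 1 low embryo, C4321.1, at 4.13, without which the log2 fold change of Pon2 was 0.34. The importin gene Ipo9 had 0.48 (SE 0.18) and the kinesin gene Kif21a 0.47 (SE 0.19). Lpin1, a phosphatidate phosphatase of lipid synthesis, had 0.53 (SE 0.21), with 1.18 within the deep libraries and 0.12 within the others. The remaining members were Tbc1d14 at 0.56, the trafficking gene Trappc10 at 0.56 and the lipid transfer gene Osbpl8 at 0.70.

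Among the lower genes 1700029P11Rik had the smallest p of all genes tested (chromosome 15, 81980540 to 81981563). The vehicle embryos ran from 3.38 normalized counts in C3774.3 to 6.21 in C4232.2, with a median of 5.19, and the exposed embryos ran from 0.394 to 3.62, with a median of 2.02. Of 8 exposed embryos 7 lay below every vehicle embryo, and the highest exposed value passed only the lowest vehicle value. The log2 fold change was -1.21 (95% interval -1.90 to -0.53), with an exact permutation p of 0.00544, and the adjusted p of limma was 0.999995.

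Gemin8, a subunit of the SMN complex that assembles spliceosomal particles, had 13.9, 9.78, 10.3, 8.74 and 10.8 normalized counts in the vehicle embryos. It ran from 3.37 to 10.4, with a median of 7.20, in the exposed embryos, with a log2 fold change of -0.62 (95% interval -1.03 to -0.21). For Gemin8 the difference was -1.26 within the deep libraries and -0.23 within the others. The transcription factor gene Klf6 showed the same kind of split, with -1.14 and -0.26, at 7.07 ± 2.06 (SD, n = 8) against 10.9 ± 2.49 (SD, n = 5) and a log2 fold change of -0.60 (95% interval -1.07 to -0.13). In both genes 6 of 8 exposed embryos lay below all vehicle embryos.

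Hpgd, the enzyme that inactivates prostaglandins, had 17.9, 3.02, 3.02, 7.48 and 6.25 normalized counts in the vehicle embryos and ran from 0.310 to 5.32, with a median of 2.97, in the exposed embryos. The log2 fold change of Hpgd was -1.11, and -0.74 without vehicle C3774.3, the highest embryo. With all embryos, LOC622124 had the largest log2 difference of the 12, -1.40 (SE 0.46). It too was highest in C3774.3, at 20.1 against at most 6.48 in the other vehicle embryos, and its rank rested on that embryo. Rdm1, a gene with an RNA recognition motif, had 16.5 ± 5.78 (SD, n = 8) against 25.8 ± 7.57 (SD, n = 5) and a log2 fold change of -0.65 (SE 0.23). The mono-ADP-ribosyltransferase gene Parp6 had -0.84 (SE 0.31), the transcription factor gene Zeb1 -0.60 (SE 0.21) and Rilpl2 -0.77 (SE 0.26). Mir17hg, host transcript of a microRNA cluster that promotes growth, had -0.65 (SE 0.25) and 1 exposed embryo at 38.3, above every vehicle embryo. The list closes with 1700030C10Rik at -0.56 and Gm14436 at -0.54.

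In 5 genes (0.0367%) the exposed and vehicle embryos did not overlap, and these were named after their values were seen. Of the 1287 splits of 8 and 5 embryos, 1 puts every exposed embryo above every vehicle embryo and 1 puts every one below. Among 13635 genes some therefore separate by chance alone, and separation is not read as a change. C2cd2 (chromosome 16, 97855209 to 97925795) was the most abundant of them, with 2.21, 3.39, 3.24, 1.96 and 3.59 normalized counts in the vehicle embryos. The exposed embryos ran from 3.67 to 5.58, with a median of 4.63, a log2 fold change of 0.61 (95% interval 0.16 to 1.06). The gap between the groups was narrow, from 3.59 to 3.67. Itgb7, an integrin subunit of leukocytes, was also higher, at 0.987 ± 0.656 (SD, n = 8) against 0.191 ± 0.130 (SD, n = 5) with a log2 fold change of 1.02. The lower genes were Wdfy2 at 0.697 ± 0.215 (SD, n = 8) against 1.63 ± 0.265 (SD, n = 5), Dusp10, a phosphatase of stress-activated kinases, at 0.454 ± 0.146 (SD, n = 8) against 1.18 ± 0.491 (SD, n = 5), and Gm5071 at 0.131 ± 0.141 (SD, n = 8) against 0.856 ± 0.441 (SD, n = 5). The last 4 genes had at most 2.32 normalized counts in any embryo.

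**Figure D2:**
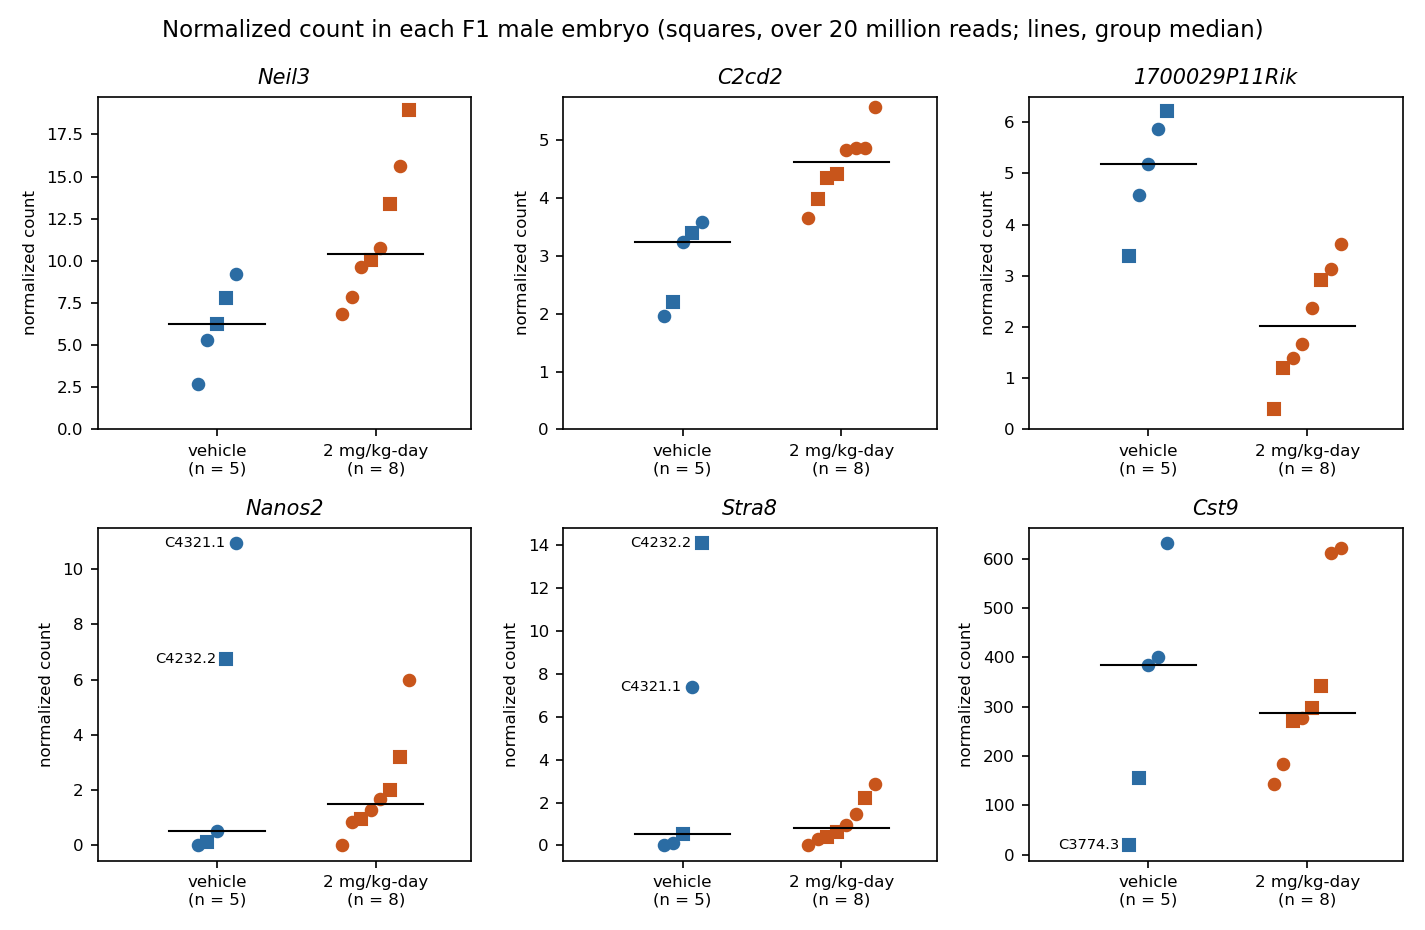
Normalized counts (y axis) of 6 genes in the 5 vehicle and 8 exposed F1 male embryos, where squares are deep libraries and lines are group medians. C2cd2, named after its values were seen, separates the groups. Nanos2 and Stra8 are highest in vehicle embryos C4321.1 and C4232.2 and Cst9 is lowest in vehicle embryo C3774.3.

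Genes of the AhR pathway showed no shared direction at the high dose. Of the 14 genes listed, 10 were tested, 0 had an adjusted p under 0.05, 0 met the 1.5-fold rule, and the median log2 fold change was 0.06, against 0.00 for all genes. Of the 10 estimates 5 were above 0 and 5 below, and 7 intervals lay within 2-fold, against 80% of all genes. The receptor gene Ahr had 4.47 ± 1.23 (SD, n = 8) against 4.13 ± 2.40 (SD, n = 5), a log2 fold change of 0.20 (95% interval -0.31 to 0.72), of the opposite sign without vehicle D2580.2. Its partner Arnt had 9.94, 6.80, 7.04, 5.18 and 5.32 in the vehicle embryos and ran from 1.39 to 8.19, with a median of 5.47, in the exposed embryos, with a log2 fold change of -0.46 (95% interval -1.10 to 0.18). The size of the Arnt estimate depended on exposed D2593.1, at 1.39 where the other exposed embryos had 4.10 to 8.19. The chaperones that hold the receptor in the cytosol were abundant, and Hsp90aa1 had a log2 fold change of 0.12 (95% interval -0.18 to 0.42).

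Estimates for 3 target genes of the receptor, Tiparp, Nqo1 and Cyp1b1, lay between -0.12 and 0.32. Tiparp, a target that feeds back on the receptor, had 16.6, 23.2, 14.5, 22.0 and 17.0 normalized counts in the vehicle embryos and ran from 8.99 to 24.8, with a median of 18.9, in the exposed embryos. Its log2 fold change of -0.09 (95% interval -0.60 to 0.42) places it within 2-fold. The quinone reductase gene Nqo1 had 20.7, 14.7, 10.5, 22.2 and 18.9 and ran from 8.99 to 24.4, with a median of 16.7, with a log2 fold change of -0.12 (95% interval -0.59 to 0.35). In both genes the groups overlapped over most of their range. Cyp1b1, the CYP1 enzyme of many steroid-forming and fetal tissues, had 2.53, 0.345, 0.335, 1.495 and 0.798 in the vehicle embryos and ran from 0.349 to 3.41, with a median of 1.23, a log2 fold change of 0.32 (95% interval -0.37 to 1.01), whose upper end lies just above 2-fold. The size of the Cyp1b1 estimate depended on single vehicle embryos, from C4321.1 at 0.335 to C3774.3 at 2.53. Cyp1a1, the most inducible of these enzymes in liver, fell under the filter on low values, with means of 0.377 in exposed and 0.103 in vehicle embryos. Its highest value, 1.66, was in an exposed embryo, and the exact permutation p was 0.352.

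Promoters were searched for GCGTG, the core of the AhR binding element, on both strands. RefSeq promoter windows of 300 bases around the start of each gene (GRCm38.p6) hold these letters in 32.4% of 32851 cases. Of the 14 pathway genes 9 have a window, and 5 of these hold the letters. Among all tested genes, 9676 have a window and 5401 of these hold the letters. The 5401 tested genes with the letters had a median log2 fold change of 0.01, with 25 higher and 40 lower by the 1.5-fold rule (1.2%), and the 4275 tested genes without them had a median of 0.00 (1.38%). The windows of Tiparp (chr3:65528197-65528496, plus strand) and Cyp1b1 (chr17:79715012-79715311, minus strand) are shown because these targets hold the letters and passed the filter on low values. The letters stand in capitals as CACGC where they lie on the other strand. A match is a description of the letters only.
Tiparp: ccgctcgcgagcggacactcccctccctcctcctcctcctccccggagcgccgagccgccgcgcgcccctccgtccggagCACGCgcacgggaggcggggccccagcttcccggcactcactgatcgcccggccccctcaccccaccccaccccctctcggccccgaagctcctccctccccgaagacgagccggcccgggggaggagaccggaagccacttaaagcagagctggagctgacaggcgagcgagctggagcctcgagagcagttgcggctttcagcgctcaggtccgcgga
Cyp1b1: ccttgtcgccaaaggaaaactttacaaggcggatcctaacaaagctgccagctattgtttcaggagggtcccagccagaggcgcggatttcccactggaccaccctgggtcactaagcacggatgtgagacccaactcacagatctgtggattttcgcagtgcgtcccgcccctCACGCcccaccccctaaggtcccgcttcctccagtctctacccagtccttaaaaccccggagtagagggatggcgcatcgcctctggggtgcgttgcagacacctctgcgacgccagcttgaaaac

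Genes of glutathione and oxidative stress defence were tested in all 24 cases, and 0 met either rule, with a median log2 fold change of 0.04 and a range of -0.68 to 0.75. The subunits of the rate-limiting enzyme of glutathione synthesis, Gclc and Gclm, had log2 fold changes of -0.05 (95% interval -0.45 to 0.35) and 0.05 (95% interval -0.44 to 0.53). Gss, the enzyme of the following step, had 7.62 ± 4.13 (SD, n = 8) against 10.8 ± 2.35 (SD, n = 5), a log2 fold change of -0.68 (95% interval -1.56 to 0.21), with -1.55 within the deep libraries and -0.16 within the others. Nfe2l2, the transcription factor that governs this defence, had 0.04, the heme oxygenase gene Hmox1 -0.06 and the thioredoxin inhibitor gene Txnip -0.13 (95% interval -0.62 to 0.35). The highest estimate, 0.75 for the microsomal transferase gene Mgst1, was of the opposite sign, -0.32, without vehicle embryo C3774.3, which had 1.04 normalized counts where the other vehicle embryos had 43.5 to 111.

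The genes that p53 switches on after DNA damage likewise gave no gene past either rule. Of 23 genes 22 were tested, and the intervals of 19 lay within 2-fold, against 80% of all genes. The median log2 fold change of the 22 genes was 0.08, and 18 of their estimates were above 0, against 6935 of 13635 for all genes. Cdkn1a, the inhibitor that halts the cell cycle, had 31.3, 38.9, 24.03, 37.95 and 61.1 normalized counts in the vehicle embryos and ran from 24.8 to 65.3, with a median of 47.6, in the exposed embryos. Cdkn1a overlapped between the groups apart from the lowest vehicle embryo and the highest exposed embryo, with a log2 fold change of 0.29 (95% interval -0.19 to 0.76). The size of this estimate depended on single vehicle embryos, from C4321.1 at 24.03 to D2580.2 at 61.1. Mdm2, which marks p53 for breakdown, had a log2 fold change of 0.04 (95% interval -0.33 to 0.41) at 63.6 ± 12.8 (SD, n = 8) against 61.0 ± 6.36 (SD, n = 5). The proapoptotic gene Bax had 0.00 (95% interval -0.30 to 0.30) and Ccng1 0.30. Sesn1, a sestrin of the stress response, had the smallest p of the list and was lower, at 4.85 ± 1.84 (SD, n = 8) against 7.37 ± 2.97 (SD, n = 5) with -0.55 (95% interval -1.13 to 0.04).

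**Figure D3:**
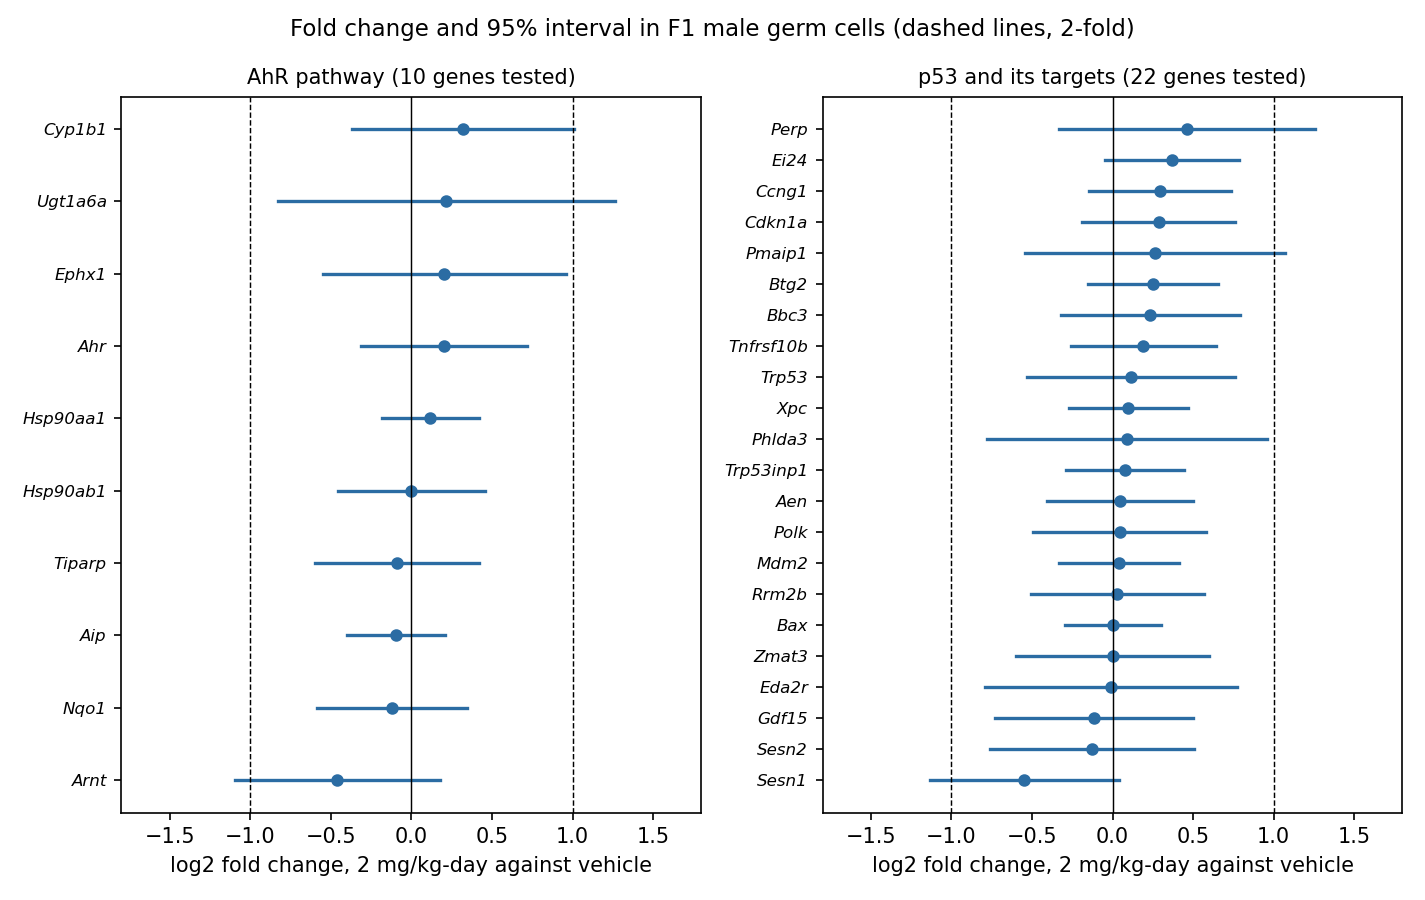
Log2 fold change of exposed against vehicle F1 males (points) with its 95% interval (bars) for the 10 AhR pathway genes and the 22 genes of p53 and its targets that were tested. Dashed lines mark 2-fold, and the intervals of 7 and 19 genes lie between them, against 80% of all genes tested.

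Of 20 genes of the BCL2 family and caspases 19 were tested. Apaf1, the scaffold of the apoptosome, was the only one to meet the 1.5-fold rule (5.26%, against 1.31% of all genes), with 6.76, 3.97, 2.24, 8.05 and 3.46 in the vehicle embryos and from 3.99 to 10.2, with a median of 7.91, in the exposed embryos. Its log2 fold change was 0.59 (95% interval 0.04 to 1.14), with an exact permutation p of 0.0894, and without vehicle C4321.1 the log2 fold change of Apaf1 was 0.37. The survival gene Mcl1 had -0.14, Bcl2l1 0.39 and the BH3-only gene Pmaip1 0.26. The repair of bulky adducts and the polymerases that bypass them were tested in all 23 genes, of which 0 met the 1.5-fold rule, against 1.31% of all genes, and all 23 intervals lay within 2-fold, against 80% of all genes and 89.7% of those of at least 5 normalized counts. Fanca, a core gene of crosslink repair, had 10.7 ± 1.55 (SD, n = 8) against 8.24 ± 2.70 (SD, n = 5) and a log2 fold change of 0.41 (95% interval 0.01 to 0.82), with an exact permutation p of 0.0427. Vehicle C3774.3 had 3.90 of Fanca where the other vehicle embryos had 8.12 to 11.2, and without C3774.3 the log2 fold change of Fanca was 0.18. The damage sensor Xpc had 0.10, the nuclease gene Ercc1 -0.04, Rev1 0.15 and Polk, the polymerase known for bypass of BaP adducts, 0.05.

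The intervals of all 19 proliferation genes lay within 2-fold, as did 89.7% of those of all genes of at least 5 normalized counts. Their log2 fold changes ran from -0.11 to 0.22, with a median of 0.07. Mki67 had 70.6 against 66.1 normalized counts in the group means, the mitotic cyclin gene Ccnb1 1059.8 against 1014 and the replication gene Mcm4 86.9 against 77.9. Of 19 G1 cyclins, CDK inhibitors and Rb genes 0 met either rule (1.31% of all genes met the 1.5-fold rule). Their intervals lay within 2-fold for 18, against 80% of all genes. The estimates for Cdkn1b, an inhibitor linked to the mitotic arrest of male germ cells, and for Rb1 were -0.33 and -0.27, and that for Ccnd1 was 0.47.

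The identity genes of PGCs had log2 fold changes of -0.35 to 0.29. All 12 were tested and 0 met either rule (1.31% of all genes met the 1.5-fold rule). Of the 12 intervals 10 lay within 2-fold, against 80% of all genes and 89.7% of those of at least 5 normalized counts. Dazl had -0.12 (95% interval -0.55 to 0.31), Ddx4 0.02 (95% interval -0.52 to 0.57) and Nanos3 -0.13 (95% interval -0.73 to 0.48), and Prdm14 had the smallest p with -0.33 (95% interval -0.81 to 0.15). Of 16 pluripotency genes 15 were tested and 0 met the 1.5-fold rule. Lin28a, which blocks maturation of let-7 microRNAs, had 9.88, 4.25, 5.70, 4.60 and 5.19 in the vehicle embryos and ran from 6.13 to 11.0048, with a median of 7.95, a log2 fold change of 0.47 (95% interval 0.07 to 0.88) with an exact permutation p of 0.0357. Vehicle embryo C3774.3 lay within the exposed range for Lin28a and the other vehicle embryos lay below it. Dppa5a, the most abundant of these genes, had 0.33 (95% interval -0.36 to 1.01), of the opposite sign without vehicle C4232.2.

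Some male fate genes, Nanos2 above all, varied more among vehicle embryos than between the groups. Of 10 genes 9 were tested, with a median log2 fold change of 0.03 and 0 genes past either rule. Nanos2, the RNA-binding protein that commits germ cells to the male program, had 0.130, 6.76, 10.95, 0 and 0.532 normalized counts in the vehicle embryos and ran from 0 to 5.98, with a median of 1.496, in the exposed embryos. C4232.2 and C4321.1 were the highest of all 13 embryos, and the 3 other vehicle embryos lay below 1. The log2 fold change was 0.03 (95% interval -1.15 to 1.21), which does not bound a difference to 2-fold. Lhx1, a transcription factor of this program, had 3.90, 6.57, 10.5, 8.63 and 9.45 and ran from 3.06 to 15.4997, with a median of 6.58, with -0.08 (95% interval -0.83 to 0.68).

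Embryos C4232.2 and C4321.1 were also high in some other germ cell genes. Of these, Egr4, Gtsf1 and Rec8 were picked out after their values were seen. Not all germ cell genes followed this pattern. Among the vehicle embryos, C4232.2 was lowest in Dppa3, at 1509 normalized counts, and in Dppa5a, at 1034. In Dazl, C4321.1 was the lowest vehicle embryo, at 669, and C4232.2 the highest, at 1376. The transcription factor gene Egr4 had 0.325, 2.82, 6.26, 0.460 and 0.399 in the vehicle embryos and a median of 0.620 in the exposed embryos, of which D2587.2 alone, at 3.28, passed C4232.2. Gtsf1, a zinc finger protein of the piRNA pathway, had 20.1, 45.3, 87.4, 12.2 and 15.6, and no exposed embryo passed 29.9. The meiotic cohesin gene Rec8 had 0.390, 2.02, 5.36, 1.04 and 0.532, and Stra8, the gatekeeper of meiosis, had 0.520, 14.1, 7.38, 0.115 and 0. Stra8 ran from 0 to 2.85, with a median of 0.795, in the exposed embryos, all below C4232.2 and C4321.1, and its log2 fold change was -0.61 (95% interval -1.79 to 0.56), of the opposite sign without C4232.2. Values that differ this much between single embryos give a wide interval, and the part of embryo age within E13.5 in these values was not tested.

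Nodal signalling was tested in 12 of 13 genes, and 0 met either rule. The ligand gene Nodal had 10.5 ± 4.86 (SD, n = 8) against 12.2 ± 3.31 (SD, n = 5), a log2 fold change of -0.31 (95% interval -0.89 to 0.26), with -0.83 within the deep libraries and -0.02 within the others. Its coreceptor gene Tdgf1 had 35.7, 19.1, 10.6, 23.2 and 15.0 in the vehicle embryos and ran from 7.80 to 49.0, with a median of 26.5, with 0.32 (95% interval -0.48 to 1.11). The feedback inhibitors Lefty1 and Lefty2 had -0.27 (95% interval -0.82 to 0.29) and 0.12 (95% interval -0.52 to 0.76), and their groups overlapped.

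Genes of meiotic entry and the synaptonemal complex were tested in 23 of 24 cases. None met the 1.5-fold rule (1.31% of all genes), and the median log2 fold change was -0.09. Of the 23 intervals 14 lay within 2-fold, against 80% of all genes and 89.7% of those of at least 5 normalized counts. The recombinase gene Dmc1 had the smallest p of the list, with 14.2, 20.95, 10.2, 16.2 and 14.5 in the vehicle embryos and from 4.46 to 14.0, with a median of 10.98, in the exposed embryos. All 8 exposed embryos lay below the vehicle mean of Dmc1, at a log2 fold change of -0.52 (95% interval -1.04 to 0.00) and an exact permutation p of 0.0544. For Dmc1 the difference was -1.04 within the deep libraries and -0.20 within the others. Tex15 had -0.51 (95% interval -1.14 to 0.12), split into -1.02 and -0.21 in the same way, the axial element gene Sycp3 -0.24 (95% interval -1.23 to 0.74) and the central element gene Syce2, the most abundant, 0.25 (95% interval -0.44 to 0.95), which was near 0 without vehicle C4232.2.

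Enzymes that write and remove DNA methylation were tested in 8 of 9 cases, all 8 intervals lay within 2-fold (80% for all genes), and 0 met either rule. The maintenance methyltransferase gene Dnmt1 had 0.14 (95% interval -0.22 to 0.49), its recruiter Uhrf1 0.35 (95% interval -0.21 to 0.91) and the dioxygenase gene Tet1 0.25 (95% interval -0.14 to 0.63). In the piRNA pathway, which silences transposons, 19 of 20 genes were tested and 0 met either rule, with a median of -0.06. Morc1 and Exd1 had the smallest p of these, with -0.44 and -0.44, the latter of the opposite sign within the deep libraries. Glycolysis was tested in all 18 genes with a median of -0.09 and 0 genes past either rule, and Gapdh had 434 ± 72.8 (SD, n = 8) against 517 ± 77.9 (SD, n = 5). Of 13 immediate early and heat shock genes 0 met either rule, with -0.53 for Ier2 (-1.47 within the deep libraries and 0.05 within the others) and -0.08 for the chaperone gene Hspa8. Of 18 chemokine and cytokine genes 7 were tested, and Ccl3 had 0.55 from values that ran from 0 to 6.51, with a median of 0.643, in exposed embryos.

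RNA of other gonadal and blood cells was present at levels that differed widely from embryo to embryo. Summed over 13 Sertoli markers, of which 11 were tested, the vehicle embryos had 74.5, 362, 612, 651 and 1004 normalized counts, and the exposed embryos ran from 232 to 1140 with a median of 491. The sums overlapped, and their difference on the log2 scale, 0.27, had an exact permutation p of 0.688 (adjusted over 11 library measures, 0.963). Without vehicle C3774.3 the log2 difference was of the opposite sign. The secreted protein gene Cst9 was the most abundant of them, with 18.6, 154, 384, 401 and 632 in the vehicle embryos and from 144 to 621, with a median of 287, in the exposed embryos. In vehicle embryo C3774.3 the Sertoli genes Inha, Sox9 and Amh were low as well, with Inha at 0.260 where the other vehicle embryos had 13.9 to 25.8, Sox9 at 0.520 and Amh at 0.130. Sox9, Amh and Inha were named after their values were seen. Fewer cells of a type and less RNA per cell cannot be told apart in these libraries, and the part of Sertoli RNA in the gene values was not tested.

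Globin RNA was high in 3 of the 13 embryos. Hba-a1 and Hba-a2, whose values are identical in all 13 embryos, had 1177 and 482 normalized counts in exposed D2587.2 and D2593.1 and 479 in vehicle D2580.2, and at most 3.18 in the others. The embryonic globin genes Hbb-y and Hba-x met the 1.5-fold rule as higher, and these were the 2 of 5 tested erythroid genes that did (40%, against 1.31% of all genes). Hbb-y had 125 and 45.7 in these exposed embryos and at most 0.286 in any other embryo, Hba-x had 162 and 182, and their exact permutation p values were 0.253 and 0.226. Leaving out the 3 libraries, an alternative added after seeing the data, gave 117 higher and 154 lower genes by the 1.5-fold rule and 0 after adjustment.

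Macrophage markers summed to between 2.99 and 37.95 normalized counts in vehicle embryos and between 5.997 and 30.1 in exposed embryos. Pf4 had 0, 0.144, 0, 26.5 and 19.7 in the vehicle embryos and at most 1.39 in the exposed embryos. Mrc1 was the 1 of 9 tested macrophage genes to meet the 1.5-fold rule (11.1%, against 1.31% of all genes), with 0.520, 0.249, 0.559, 0.460 and 0.133 in the vehicle embryos and from 0.279 to 4.33, with a median of 0.957, in the exposed embryos, a log2 fold change of 1.06 (95% interval 0.13 to 1.98). Markers of the macrophage list therefore lay in opposite directions, and Ptprc and Cx3cr1 did not pass the filter on low values. Endothelial markers summed to at most 25.97, with Plvap the most abundant, and stroma markers to at most 13.9, with 8 of 9 under a mean of 1.

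Supporting cells of the ovary are marked by Foxl2, Wnt4, Fst and Rspo1. The summed pregranulosa markers were 2.64 ± 0.901 (SD, n = 8) in exposed and 4.36 ± 1.93 (SD, n = 5) in vehicle embryos, with an exact permutation p of 0.0583 and an adjusted p of 0.641. The exact permutation p was under 0.05 when any one of vehicle C3774.3, vehicle C4605.1 or exposed D2587.2 was left out. Rspo1, which activates Wnt signalling, was the largest part, with 0.780, 3.33, 5.48, 2.19 and 2.00 in the vehicle embryos and from 0 to 2.71, with a median of 1.19, in the exposed embryos. It was the 1 of 3 tested pregranulosa genes to meet the 1.5-fold rule (33.3%, against 1.31% of all genes), at -0.98 (95% interval -1.74 to -0.22) with an exact permutation p of 0.0598, and it was picked out after its values were seen. Wnt4 had -0.55, of the opposite sign within the deep libraries, and Fst 0.05. None of the 11 library measures passed the adjusted test, depth and number of detected genes included.

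**Figure D4:**
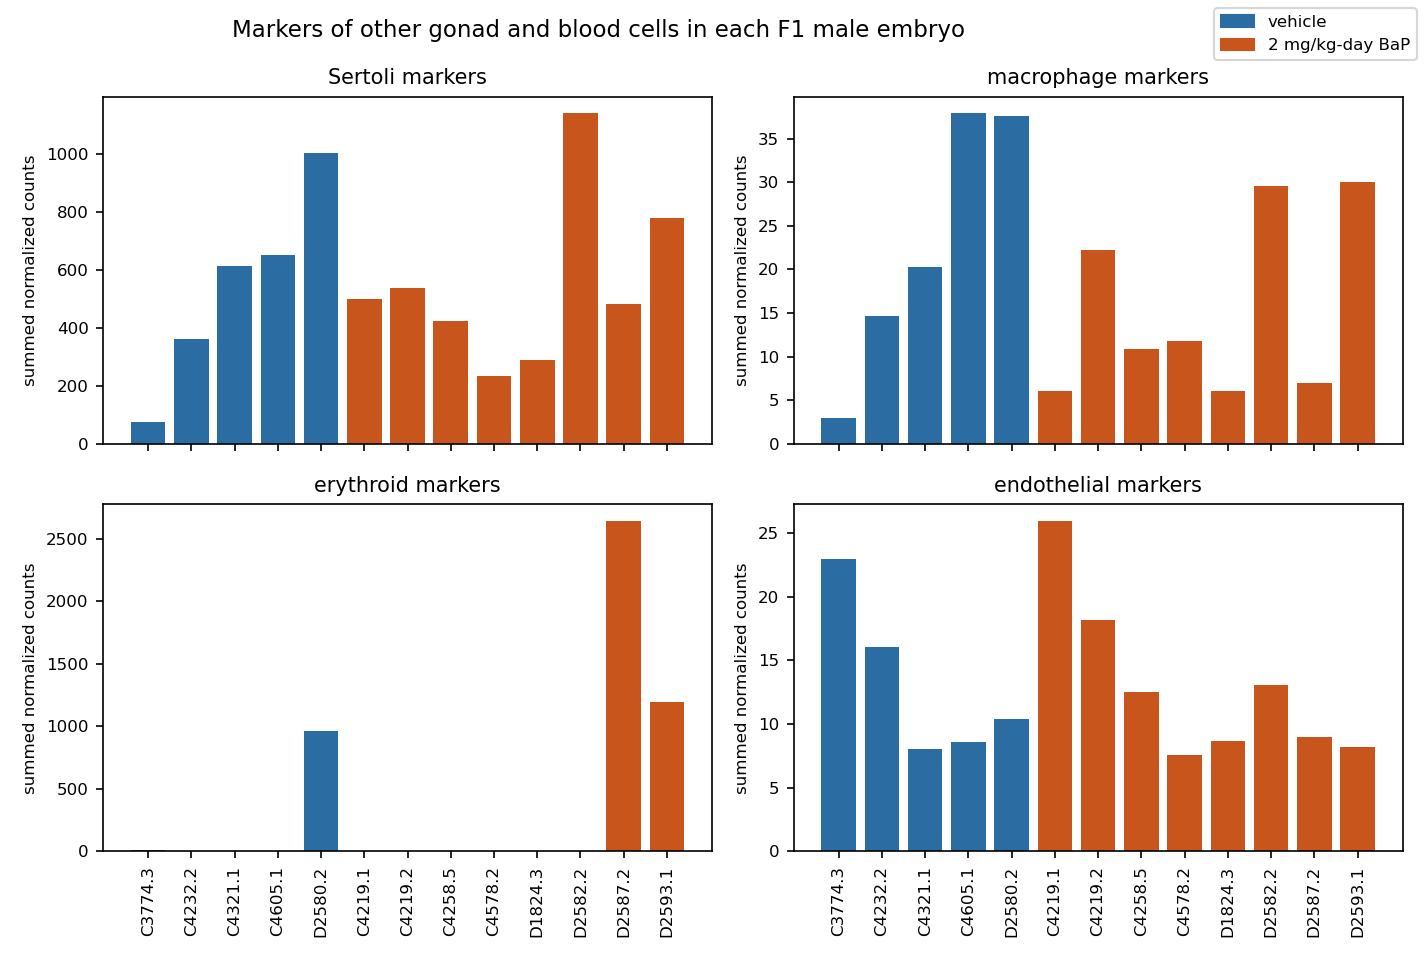
Summed normalized counts (y axis, from 0) of the Sertoli, macrophage, erythroid and endothelial markers in each of the 5 vehicle and 8 exposed F1 male embryos (x axis). Sertoli RNA is lowest in vehicle C3774.3 at 74.5, and the erythroid sum reaches 2644, 1196 and 960.4 in D2587.2, D2593.1 and D2580.2 and at most 8.90 in the others, with the identical values of Hba-a1 and Hba-a2 both counted.

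Sex-specific genes were defined without F1 embryos, as genes that differed by over 2-fold with an adjusted p under 0.05 between male and female vehicle embryos of F2 and F3. There were 1019 male-specific (7.76%) and 1087 female-specific genes (8.28%) among 13128 tested. In the F1 males 1008 of the male-specific genes were tested, with 5 higher and 11 lower in exposed embryos by the 1.5-fold rule (1.59%) and a median log2 fold change of -0.02. Of the female-specific genes 1080 were tested, with 13 higher and 15 lower (2.59%) and a median of -0.01. For all genes the share was 1.31% and the median 0.00, and 0 genes of either list had an adjusted p under 0.05.

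The response of males was next set against that of F1 females of the same dose. All exposed females came from dams that also gave exposed males. All vehicle females except D1961.1 came from dams that also gave vehicle males. The main fit does not use this pairing by litter, and the fit with the dam as a random block, given below, takes it into account. The difference between the sexes had 0 genes (0%) with an adjusted p under 0.05 in limma, where the smallest was 0.190, and 596 genes (4.37%) at an unadjusted p under 0.05. In edgeR 0 genes passed by quasi-likelihood and 4 by likelihood ratio, with 688 and 753 at an unadjusted p under 0.05. Agtpbp1, which trims polyglutamate chains from tubulin, led this comparison. In males its normalized count was 14.6 ± 4.29 (SD, n = 8) against 10.3 ± 1.02 (SD, n = 5), and in females it was 7.42 ± 1.57 in exposed and 13.7 ± 2.43 in vehicle embryos (SD, n = 5 each). The log2 fold changes were 0.44 in males and -0.85 in females, a difference of 1.29 (SE 0.27, limma adjusted p = 0.190).

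Frat2, an inhibitor of GSK3 that promotes Wnt signalling, had 6.37, 3.29, 4.81, 4.37 and 6.52 normalized counts in the male vehicle embryos and ran from 2.60 to 6.23, with a median of 4.65, in the exposed males. In females it was 3.53 ± 1.05 in exposed and 1.06 ± 0.314 in vehicle embryos (SD, n = 5 each). The log2 fold change was -0.12 (95% interval -0.54 to 0.30) in males and 1.35 (SE 0.23) in females, where Frat2 was the 1 gene (0.00733%) with an adjusted p under 0.05 in limma and 1349 genes (9.89%) had an unadjusted p under 0.05. The difference was -1.47 (SE 0.31, limma adjusted p = 0.190). With the dam as a random block 1271 genes had an unadjusted p under 0.05 and the difference passed for 2, Frat2 and Agtpbp1, and the 4 of the likelihood ratio test were these, Nphs1 and its antisense gene Nphs1as, whose reads cannot be told apart without strand. Nphs1 and Nphs1as were named after their values were seen. Gm5635, the next gene, had -0.59 in males and 0.89 in females.

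Between the high and the middle dose, 8 males at 2 mg/kg-day and 6 at 0.2 mg/kg-day, 0 genes (0%) had an adjusted p under 0.05 in limma and 362 (2.65%) had an unadjusted p under 0.05 (549 without exposed embryo D2587.2). The edgeR tests also gave 0 genes after adjustment, with 389 by quasi-likelihood and 457 by likelihood ratio at an unadjusted p under 0.05. The middle dose itself gave 0 genes (0%) against vehicle in limma after adjustment and 159 (1.17%) at an unadjusted p under 0.05. Of the leading genes of the difference, Gm16516 had 0.417 against 1.12 normalized counts, and Trak2, an adaptor of mitochondrial transport, had 3.85 against 1.94. Their levels are low, and the log2 differences were -0.88 and 0.89. The vehicle means of the same genes were 0.996 and 3.30.

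Male embryos of the later generations of the 2 mg/kg-day lineage gave 3 exposed and 6 vehicle embryos in each of F2 and F3. The founding dams of F2 and F3 were dosed to a later day of gestation than the dams of F1, so that generation and length of dosing cannot be told apart in these differences. The F1 response less the F2 response had 0 genes (0%) with an adjusted p under 0.05 in limma among 13288 tested, and 195 (1.47%) at an unadjusted p under 0.05. Against F3 there were 0 (0%) and 237 (1.78%). Within F2 and F3 themselves limma gave 0 genes (0%) after adjustment, with 236 (1.78%) and 105 (0.79%) at an unadjusted p under 0.05. Helt, a transcriptional repressor of the HES family, was among the leading genes of both differences. In F1 males Helt had 1.07 ± 0.988 (SD, n = 8) against 2.14 ± 0.448 (SD, n = 5), a log2 fold change of -0.96 (95% interval -1.66 to -0.27), whereas the log2 fold change was 0.76 (SE 0.37) in F2 and 0.87 (SE 0.37) in F3. Fgf9, a growth factor of Sertoli cells, led the difference from F2 and had 0.34 in F1 and -1.65 in F2. The microtubule gene Mtus2 had -0.64 in F1 and 0.72 in F2. In the difference from F3, the lysophosphatidic acid receptor gene Lpar1 had 0.62 in F1 and -0.82 in F3, and Kank4 had 0.49 and -0.80. None of these differences passed the adjusted test.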

How the data were processed

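RNA of EGFP-sorted germ cells of single E13.5 embryos was sequenced in pairs of reads. The signal table was made by the authors: after trimming (Trim Galore), STAR placed the reads on GRCm38/mm10, Rsubread gave exon counts for each gene, and edgeR scaled these by TMM. Divided by the size of 1 read in its library, 100% of the nonzero values of the 13 embryos came out within 0.05 of a whole read. The reads recovered in this way were used for depth and for the count tests. After adjustment these called 0 genes between exposed and vehicle males, and the likelihood ratio test called 4 in the difference between the sexes.

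Groups follow the labels for generation, sex and dose. The test was limma 3.58.1 in R 4.3.3 (limma-trend) on log2(normalized count + 0.5), with genes of a mean of at least 0.5, all 38 F1 embryos in 8 groups of sex and dose, and Benjamini-Hochberg adjustment. The generations were compared in 1 fit of all 101 embryos. The count tests were those of edgeR 4.0.16, by quasi-likelihood and by likelihood ratio. Single genes and 11 library measures had an exact permutation test over the 1287 splits of 8 and 5 embryos. The scripts were tested on simulated data without litter effects. With 8 exposed and 5 vehicle embryos, limma recovered 51.5% of 200 genes changed 2-fold and 88% of 200 changed 3-fold. The changed genes had a mean of at least 5 normalized counts, and the threshold was an adjusted p under 0.05. Changes of 2-fold can therefore be missed. No p is given for the fold changes of a gene list, and the summed cell type markers were tested among the library measures.

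Genes are named as the 12 of smallest p in each direction with a group mean of at least 5, the 2 of smallest p and the most abundant of each list, a list of key genes, and up to 3 genes for each difference. One gene that this rule names is withheld and is not reported here. The members and lists were chosen with earlier results of these data known. Genes outside this rule that are singled out are said to be chosen after their values were seen. Further genes of a list are given by their values as members of it. Alternatives changed the pseudocount, the filter, the tool, the scaling, the embryos in the fit, the treatment of litters, and terms for depth and dam letter, and left out each embryo in turn. Embryos at 0.033 mg/kg-day are in the fits, and the effect of that dose was not analysed here.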

Additional observations from a re-analysis of the deposited data

Results flagged for a closer look

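In 286 groups of embryos examined, 1 embryo lay far from the others of its group in 14, of which 11 were genes and 3 library measures. Chance flags about 1 in 20 groups. Each of the following stands apart because its gap to the nearest embryo is large beside the whole range of the group.

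Among vehicle embryos, C3774.3 was low in the Sertoli gene Inha (0.260 normalized counts) and in the glutathione transferase gene Mgst1 (1.04), high in Hbb-y (0.130, from few reads), and had 30.9% of its values in the 50 most abundant genes. C4321.1 was low in Pon2 (4.13) and high in the summed stroma and mesonephros markers (8.05). D2580.2 was high in the retinoic acid hydroxylase gene Cyp26b1 (1.597) and in the summed erythroid markers (960.4, with the identical values of Hba-a1 and Hba-a2 both counted).

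Among exposed embryos, D2593.1 was high in the pluripotency gene Dppa5a (8491) and low in the cyclin-dependent kinase gene Cdk4 (241) and in Arnt (1.39). C4219.1 was low in the recombinase gene Dmc1 (4.46) and high in Kank4 (7.61). D2587.2 was high in Egr4 (3.28). What sets these embryos apart was not tested.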

How the results depend on the processing

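The number of genes past the adjusted test in F1 males was 0 in all 28 alternative settings. The counts by unadjusted p and 1.5-fold, 69 higher and 109 lower, moved with the setting. Genes higher in exposed embryos numbered 33 with a pseudocount of 1, 11 with a minimum mean of 5, 38 with only the 13 male embryos in the fit, 123 by the edgeR likelihood ratio test, 152 with log10 reads as a term, 173 with the dam letter as a term, 191 with only C dams, and 117 without the 3 libraries rich in Hba-a1, an alternative chosen after seeing the data. Lower genes numbered 57 with a pseudocount of 1, 27 with a minimum mean of 5, 67 with only the 13 male embryos, 135 by the likelihood ratio test, 140 with log10 reads, 143 with the dam letter and 230 with only C dams. With 1 embryo left out, higher genes ran from 47 (without exposed C4219.1) to 115 (without vehicle C4321.1), and lower genes from 65 (without vehicle C4321.1) to 210 (without vehicle C3774.3). The filter on the mean tests fewer genes, and the cause of the other shifts was not tested.

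The difference between the sexes passed for 4 genes by the likelihood ratio test and for 2 with the dam as random block, against 0 in the main test. With no fold minimum, sex-specific genes of the vehicle lineages, higher in males numbered 3330, and sex-specific genes of the vehicle lineages, higher in females numbered 3300. The log2 difference in pregranulosa markers ran from -0.77 without vehicle C3774.3 to -0.40 without vehicle C4321.1. Of 3483 values of named genes under alternatives 133 had the opposite sign. Of the 644 values of the 24 leading genes 0 did, and 33 had an unadjusted p of 0.05 or more. These 24 genes were chosen by the smallest p in the same embryos, so that their stable sign is not separate support. Of 699 list medians 114 had the opposite sign and 9 moved by over 1 SD between embryos.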

Other observations

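RNA of steroid-forming and surface cells of the gonad was low in all 13 embryos. Fetal Leydig markers summed to 4.13 ± 2.31 (SD, n = 8) in exposed and 4.62 ± 1.89 (SD, n = 5) in vehicle embryos, with 3 of 5 genes tested and a median log2 fold change of 0.03. Hsd3b1, an enzyme of steroid synthesis, was the most abundant of them and ran from 0 to 5.43. The coelomic epithelium markers summed to 9.03 ± 2.46 (SD, n = 8) and 8.84 ± 5.18 (SD, n = 5), with Krt7, an epithelial keratin, the most abundant. The log2 fold change was 0.29 for Krt7 and -0.57 for Krt19, and neither gene met the 1.5-fold rule. Of the endothelial markers 3 were tested, with a median of -0.02 and 0 genes past either rule.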
